A study of Mus musculus with 25 samples.

Results

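The 77 nuclear genes named for proteins of the mitochondrial ribosome were examined in cultured neonatal mouse cardiac myocytes with and without transgenic CHF1/Hey2. Members were all genes whose symbol in the array annotation begins with Mrpl, for the large ribosomal subunit, or Mrps, for the small subunit, followed by a digit. There were 48 large subunit genes and 29 small subunit genes among 19938 genes with a probe set that names 1 gene. Where several probe sets named the same gene, as for 8 members, the one with the highest mean over the 25 arrays was used. The rule itself uses no measured value beyond that mean, but it was set with earlier results of these data known. All 77 genes were tested.

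Mitochondria carry their own ribosomes, which translate the few proteins encoded by mitochondrial DNA. Those proteins are core subunits of the respiratory chain complexes and of ATP synthase, so the cardiac myocyte, whose contraction depends on oxidative phosphorylation, needs this translation machinery throughout life. The ribosomal RNAs come from mitochondrial DNA, whereas every ribosomal protein is made in the cytosol from a nuclear gene and imported. Some of the proteins have bacterial counterparts and others are found only in mitochondria. In people, inherited defects of several of them, among them MRPL3, MRPL44 and MRPS22, are a known cause of mitochondrial disease with cardiomyopathy.

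The study asked which transcripts respond to CHF1/Hey2, a transcriptional repressor of the Hairy family, when myocytes are given serum as a hypertrophic stimulus. Transgenic (TG) mice carried CHF1/Hey2 under the mlc2v promoter, a ventricular myosin light chain promoter that is active in myocytes, and wild type (WT) mice carried no transgene. Neonatal myocytes of both genotypes were cultured without serum. One set of arrays came from these cells without further treatment and comprised 6 TG and 5 WT arrays, and the other set came from cells given 20% fetal bovine serum for 24 hours and comprised 7 TG and 7 WT arrays. Each array held total RNA of 1 culture, and the arrays are taken as separate primary cultures. The labels state neither a transgenic line nor how many pups were pooled. Values are log2 intensities that the submitters normalized by RMA, a method that combines the probes of a gene into 1 value for each array.

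Hey2 was higher in every TG culture than in any WT culture. It ranged from 7.08 to 8.55 in the TG arrays and from 6.12 to 6.37 in the WT arrays without serum, and from 7.94 to 9.36 and from 6.59 to 7.36 with serum (differences 1.58 and 1.81, adjusted p = 0.853 and 0.00972 by limma). Without serum the adjusted p was at least 0.853 for all 19938 genes, Hey2 included. The 20 sarcomere genes had mean log2 values between 7.07 and 13.7 and were all expressed. Among markers of other cells Acta2 of smooth muscle, which cultured myocytes can also express, reached 12.6. Col1a1, the highest of the fibroblast genes, reached 12.05, and Krt18 of epicardium 10.7. The highest macrophage and endothelial genes, Lyz2 and Eng, lay below these. Cultures are numbered as in the labels. The sarcomere genes were lowest in TG culture 5 and WT culture 2 without serum. With serum, the array medians were 5.21 to 5.36 against 4.99 to 5.09 without, and the sets stood on different scales. TG was therefore compared with WT within each set. Differences are given as TG minus WT on the log2 scale, where 0.068 is a 1.05-fold level.

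Every member was expressed above the dim range of the array. The mean over 25 arrays ran from 5.83 for Mrpl33 to 10.1 for Mrpl51, with a median of 8.06, and 0 of 77 members had a mean under 5. The median level of the 77 genes was 7.84 in WT and 7.93 in TG myocytes without serum, and 8.23 in WT and 8.36 in TG myocytes with serum. As deposited, 72 of 77 members were higher with serum in WT cells, by a median of 0.54, but the median of all genes was 0.23 higher as well. After quantile normalization over all 25 arrays the median difference of the members was 0.075, with 45 of 77 higher. A response of these genes to serum cannot be told apart from the difference in scale between the sets.

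The spread between cultures of the same genotype was measured for each gene. The median residual standard deviation of a member was 0.115 without serum and 0.0972 with serum, against 0.106 and 0.157 over all genes. Mrpl42 varied most without serum, with a standard deviation of 0.317, and Mrpl22 varied most with serum, with 0.203. Mrpl4 and Mrps33 varied least, with 0.0352 without serum and 0.0427 with serum.

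In the absence of serum most mitochondrial ribosome genes lay slightly higher in TG than in WT myocytes, and no single gene passed the test. TG minus WT was above 0 for 63 of 77 members, against 45.2% of all genes and 55.9% of the 9420 genes within the members' range of mean values. The median difference was 0.068, a 1.05-fold level in TG cells, against -0.0083 over all genes. The large subunit had 39 of 48 genes above 0 with a median of 0.061 and the small subunit 24 of 29 with a median of 0.070. By limma with Benjamini-Hochberg adjustment over 35557 probe sets 0 members were called, with a smallest adjusted p of 0.853 (0% of all probe sets were called). Before adjustment 14 members had p under 0.05 and were higher in TG, against 2.31% of all probe sets, and 0 members were lower, against 3.33%. Here and below, all probe sets include dim and unnamed ones, whereas no member was dim, so these shares are not matched for level. The count of 14 fell to 7 without WT culture 2, and to 9 without WT culture 5 or TG culture 3. The mean of the 77 genes after centring each gene ran from -0.041 to 0.087 over the TG arrays and from -0.086 to 0.040 over the WT arrays, so the genotypes overlapped. The sarcomere genes were also above 0 in 17 of 20 cases with a median of 0.13, and in bulk RNA a larger share of myocytes and more RNA per myocyte cannot be told apart.

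The member with the smallest p in the absence of serum was Mrpl35, a large subunit protein with a bacterial counterpart. Its TG arrays lay at 8.36, 8.47 and 8.50 (lowest, median and highest of 6) and its WT arrays at 8.28, 8.29, 8.28, 8.41 and 8.26. Only 1 WT array, the fourth, reached the TG range. The difference was 0.14 (SE 0.0402, adjusted p = 0.853 by limma). Mrpl4, a protein at the exit tunnel for the growing peptide, was the single member whose groups did not overlap, in a set where 0.172% of probe sets had all TG arrays above all WT arrays. Its TG arrays ran from 8.525 to 8.59 with a median of 8.57, and its WT arrays read 8.52, 8.47, 8.42, 8.49 and 8.524. The lowest TG culture and the highest WT culture were thus nearly equal, and the difference was 0.078 (SE 0.0316, adjusted p = 0.855).

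The other members that led this comparison belonged to both subunits. Mrps17, a small subunit protein with a bacterial counterpart, had a difference of 0.24 (SE 0.0853), with TG arrays from 7.37 to 7.58 and WT arrays at 7.40, 6.87, 7.26, 7.19 and 7.32. The low WT value of 6.87 was culture 2, which also had the lowest sarcomere genes of the WT cultures. Mrps30 had a difference of 0.24 and Mrps18c, 1 of 3 related small subunit genes, a difference of 0.22. Mrps30 and Mrps18a keep small subunit symbols although their proteins are now placed in the large subunit. Among large subunit genes the differences were 0.18 for Mrpl51, 0.16 for Mrpl16, 0.13 for Mrpl40, 0.13 for Mrpl55 and 0.19 for Mrpl13. A second, dimmer probe set of Mrpl51 gave 0.045. All of these overlapped between genotypes and had adjusted p of 0.853 to 0.855. For Mrps18c the TG arrays lay at 8.83, 9.15 and 9.20 (lowest, median and highest) and the WT arrays at 8.71, 8.78, 8.95, 8.94 and 8.96, with 1 TG culture, the sixth, inside the WT range. For Mrps30 the TG arrays lay at 6.63, 6.74 and 7.08 and the WT arrays at 6.48, 6.64, 6.52, 6.65 and 6.54. The 2 highest TG values of Mrps30, 7.02 and 7.08, came from cultures 4 and 5, the TG cultures with the lowest sarcomere genes.

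**Figure D1:**
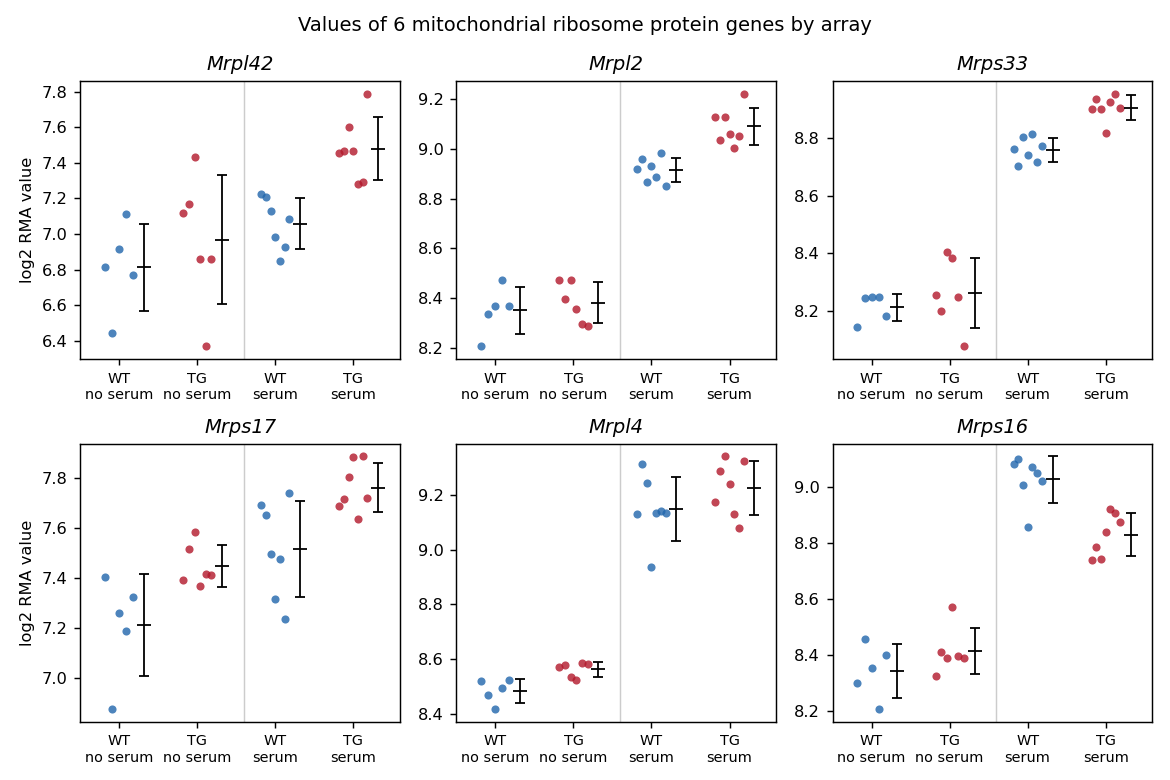
Log2 RMA values of 6 mitochondrial ribosome protein genes on each array (vertical axis) in the 4 groups (horizontal axis), with black marks for the group mean and bars for 1 SD. The vertical scale differs between genes and must not be read across them. With serum, the 7 TG arrays of Mrpl42, Mrpl2 and Mrps33 all lie above the 7 WT arrays, while those of Mrps16 lie mostly below.

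In the presence of serum most mitochondrial ribosome genes again lay higher in TG than in WT myocytes, and no single gene passed the test. TG minus WT was above 0 for 69 of 77 members, against 44.6% of all genes and 55.1% of the genes in the members' range of values. The median was 0.10, a 1.07-fold level, against -0.016 over all genes. The large subunit had 44 of 48 genes above 0 with a median of 0.11, and the small subunit 25 of 29 with a median of 0.076. Again 0 members were called by limma with Benjamini-Hochberg adjustment, where 3 probe sets of 35557 were called in all (0.00844%). Before adjustment 24 members had p under 0.05 and were higher in TG, against 4.39% of all probe sets, and 1 member was lower, against 6.31%. These shares are again not matched for level. Without TG culture 4 the count of 24 fell to 15. After the set was quantile normalized again it was 18, and after centring of the arrays on their medians it was 43.

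The mean of the 77 genes separated the genotypes in this set. It ran from 0.019 to 0.088 over the 7 TG arrays and from -0.12 to 0.0044 over the 7 WT arrays, so that every TG culture lay above every WT culture. At the level of single genes 3 members, or 3.90%, had all TG arrays above all WT arrays, against 0.101% of all probe sets, and 0 had all TG arrays below, against 0.155%. These 3 were Mrpl42, Mrpl2 and Mrps33.

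Mrpl42, a large subunit protein found only in mitochondria, had the largest difference of the 77 genes. Its TG arrays lay at 7.28, 7.47 and 7.79 (lowest, median and highest of 7) and its WT arrays at 6.85, 7.08 and 7.22. The lowest TG culture thus lay just above the highest WT culture. The difference was 0.42 (SE 0.0854, 95% interval 0.24 to 0.61), or 1.34-fold, with an adjusted p of 0.164 by limma. Without serum the TG arrays of Mrpl42 lay at 6.37, 6.99 and 7.43 and the WT arrays at 6.81, 6.45, 6.92, 7.12 and 6.77, and the difference was 0.16 (SE 0.174).

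Mrpl2 encodes a conserved protein next to the catalytic centre of the large subunit. Its TG arrays with serum were at 9.004, 9.06 and 9.22 and its WT arrays at 8.85, 8.92 and 8.98, and no TG culture fell into the WT range. The difference was 0.18 (SE 0.0469, adjusted p = 0.292). Mrps33, a small subunit protein found only in mitochondria, had TG arrays at 8.82, 8.91 and 8.95 and WT arrays at 8.70, 8.76 and 8.81, with a difference of 0.15 (SE 0.0414, adjusted p = 0.31). Its second probe set gave 0.11. Without serum the differences of Mrpl2 and Mrps33 were 0.030 and 0.048 and the genotypes overlapped.

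Mrps16 ran the other way. It encodes a small subunit protein with a bacterial counterpart, and its loss in people causes a severe defect of mitochondrial translation. With serum its TG arrays lay at 8.74, 8.84 and 8.92 and its WT arrays at 8.86, 9.05 and 9.10. The WT culture at 8.86 was the only one inside the TG range. TG minus WT was -0.20 (SE 0.0524, adjusted p = 0.292). Without serum TG arrays at 8.33, 8.39 and 8.57 overlapped WT arrays at 8.30, 8.46, 8.35, 8.21 and 8.401, with a difference of 0.070.

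Other members with small p in the presence of serum were spread over both subunits, and each overlapped between genotypes. Mrpl3, near the catalytic centre, had a difference of 0.19 (SE 0.0565), Mrpl55 0.19 (SE 0.0571), Mrps35 0.22 (SE 0.0696), Mrps5 0.21 (SE 0.0666) and Mrps17 0.25 (SE 0.0821). Mrps36 had a difference of 0.24 (SE 0.0744), and its protein is now assigned to the alpha-ketoglutarate dehydrogenase complex rather than to the ribosome. The adjusted p of these 6 genes ranged from 0.31 to 0.342. In Mrps17 the TG arrays ran from 7.63 to 7.89 and the WT arrays from 7.23 to 7.74. A second probe set gave 0.13 for Mrps5 and 0.31 for Mrps36. Mrps5 lay at 7.57, 7.79 and 7.79 in TG and at 7.32, 7.59 and 7.66 in WT arrays, so that 1 TG culture alone fell into the WT range. Mrpl3 lay at 8.72, 8.82 and 8.97 in TG and at 8.54, 8.60 and 8.74 in WT arrays, and Mrps36 at 6.66, 6.74 and 6.96 and at 6.24, 6.59 and 6.67. In both genes the highest WT cultures reached the lower end of the TG range.

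**Figure D2:**
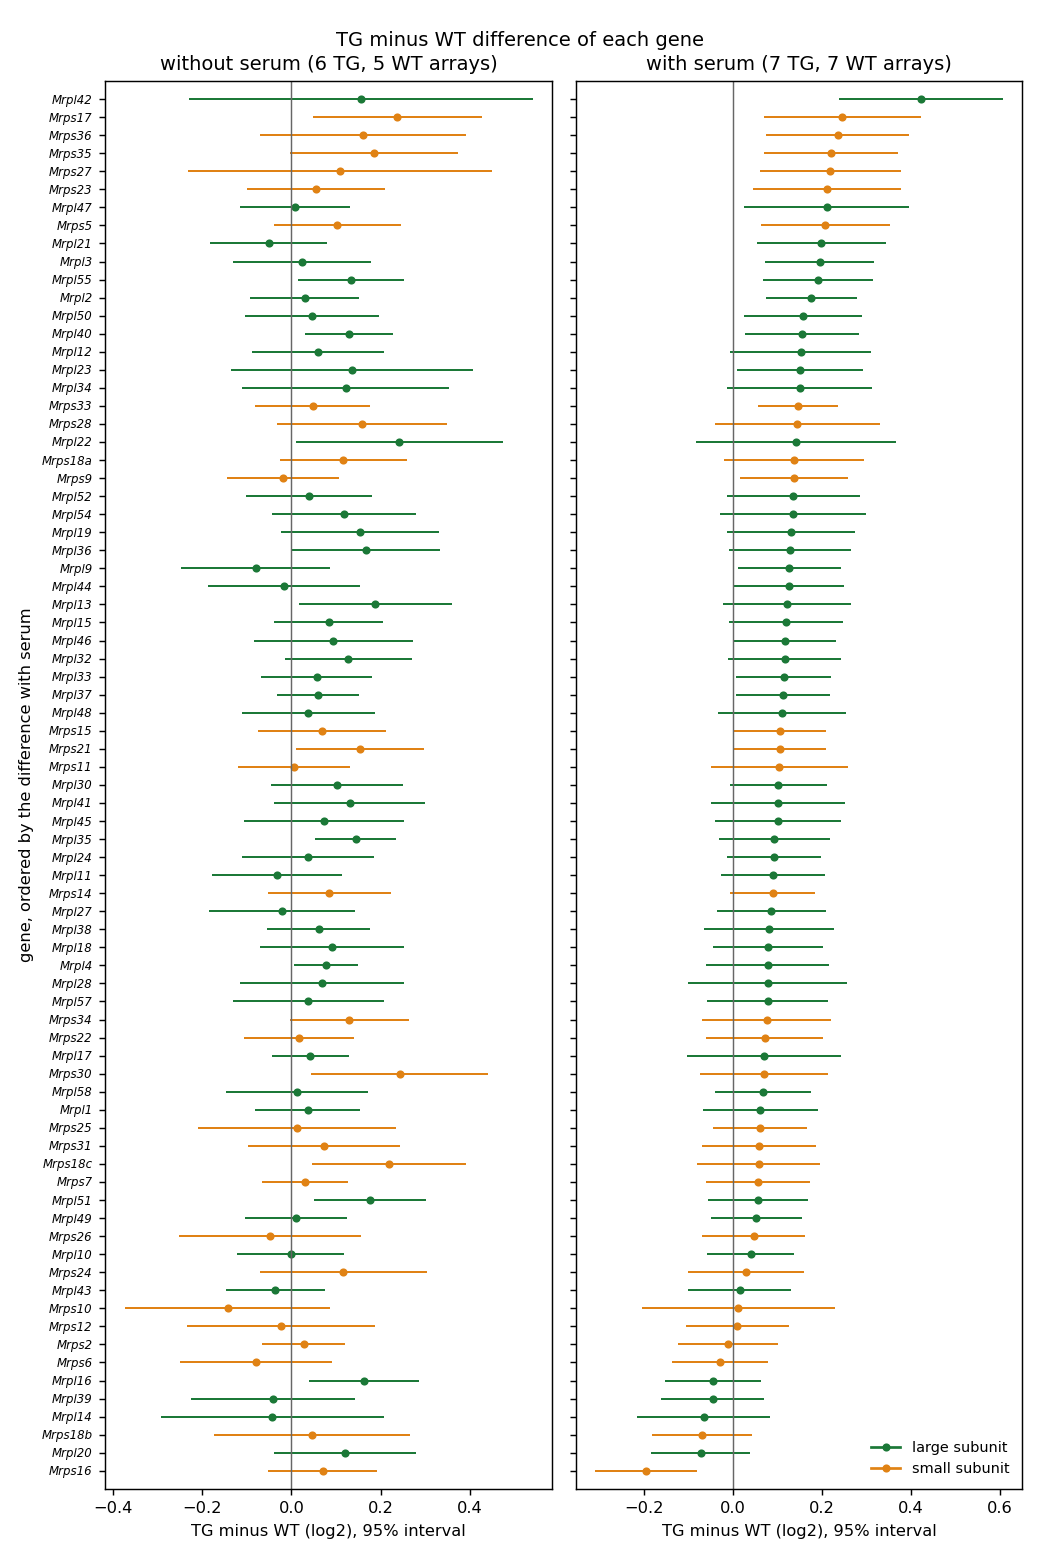
TG minus WT difference of each of the 77 genes on the log2 scale with its 95% interval from limma (horizontal axis), without serum on the left and with serum on the right. Genes are ordered by the difference with serum, and colour marks the subunit. With serum 69 of 77 points lie to the right of 0, from Mrpl42 at 0.42 down to Mrps16 at -0.20, and without serum 63 of 77 do.

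Promoter sequence is shown for the 3 genes whose cultures did not overlap with serum, for Mrps16, which ran the other way, and for Mrps21, 1 of the 5 genes that led in both sets, which was singled out after its values were seen. Each line gives the 250 bases before the most upstream start listed in the RefSeq promoter windows, 5′ to 3′ on the gene's strand, on build GRCm38.p6. For Mrpl2, whose gene record begins inside that window, the 201 bases before the record are shown. Capitals mark matches on either strand to the motifs searched.
Mrpl42, chr10:95501950-95502199, minus strand: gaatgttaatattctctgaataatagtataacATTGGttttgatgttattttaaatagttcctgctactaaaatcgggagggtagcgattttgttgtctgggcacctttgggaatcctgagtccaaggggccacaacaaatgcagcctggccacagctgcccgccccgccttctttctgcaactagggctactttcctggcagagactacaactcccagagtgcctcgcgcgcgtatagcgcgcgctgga
Mrpl2, chr17:46645971-46646171, plus strand: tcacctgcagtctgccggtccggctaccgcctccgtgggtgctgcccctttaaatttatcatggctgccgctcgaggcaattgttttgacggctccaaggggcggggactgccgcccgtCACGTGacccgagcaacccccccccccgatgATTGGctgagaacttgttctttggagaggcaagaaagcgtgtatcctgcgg
Mrps33, chr6:39810937-39811186, minus strand: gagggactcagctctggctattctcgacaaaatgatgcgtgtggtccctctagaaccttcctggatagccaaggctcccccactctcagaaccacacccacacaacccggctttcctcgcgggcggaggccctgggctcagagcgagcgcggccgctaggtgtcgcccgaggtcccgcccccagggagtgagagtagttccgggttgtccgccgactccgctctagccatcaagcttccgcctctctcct
Mrps16, chr14:20393635-20393884, minus strand: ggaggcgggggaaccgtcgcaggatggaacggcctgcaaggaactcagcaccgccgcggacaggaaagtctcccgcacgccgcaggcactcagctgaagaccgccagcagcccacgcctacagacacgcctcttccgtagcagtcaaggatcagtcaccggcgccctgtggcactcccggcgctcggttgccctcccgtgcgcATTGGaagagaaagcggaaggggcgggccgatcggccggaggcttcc
Mrps21, chr3:95871515-95871764, minus strand: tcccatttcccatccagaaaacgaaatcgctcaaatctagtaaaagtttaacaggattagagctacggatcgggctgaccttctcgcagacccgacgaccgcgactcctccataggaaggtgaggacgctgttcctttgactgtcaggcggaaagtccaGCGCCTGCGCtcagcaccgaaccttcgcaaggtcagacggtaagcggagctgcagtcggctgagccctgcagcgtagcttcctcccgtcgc

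The motifs were the NRF-1 motif, which is GCGC and TGCGC with any base between them, the GABP motif CCGGAAG, the YY1 motif ATGGCGGC, the E box CACGTG and the CCAAT box CCAAT, each sought on both strands. The NRF-1 and GABP factors are known regulators of nuclear genes for mitochondrial proteins, and factors of the Hairy family bind E box and related sequences. The capitals are a CCAAT box in Mrpl42, an E box and a CCAAT box in Mrpl2, a CCAAT box in Mrps16 and an NRF-1 motif in Mrps21, and Mrps33 held no match in this window. Of the 68 members with a listed window, 10 held the NRF-1 motif (14.7%, against 3.87% of 27025 genes) and 15 the GABP motif (22.1% against 7.07%). The E box was present in 5 (7.35% against 6.04%), the CCAAT box in 24 (35.3% against 34.5%) and the YY1 motif in 1 (1.47% against 1.03%). The NRF-1 motif was found in the windows of Mrpl9, Mrpl12, Mrpl17, Mrpl30, Mrpl32, Mrpl39, Mrpl44, Mrpl45, Mrpl57 and Mrps21. These are matches of letters in a fixed window and do not show binding. The 27025 genes were all those with a listed window, expressed here or not, so the shares are not matched for level.

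The sets with and without serum hold separate arrays, so each gives its own estimate of the TG minus WT difference. The sources do not state whether cultures with and without serum shared a cell preparation, so the estimates need not be independent. In 58 of 77 members (75.3%) the difference was above 0 in both sets, against 27% of all genes and 40.3% of genes in the members' range of values. Another 3 members were below 0 in both, against 37.2% of all genes. Before adjustment, 5 members had p under 0.05 and were higher in TG in both sets, against 0.311% of all genes. That share includes dim genes and is not matched for level. These 5 were Mrpl40 (0.13 and 0.15), Mrpl55 (0.13 and 0.19), Mrps17 (0.24 and 0.25), Mrps21 (0.15 and 0.10) and Mrps35 (0.19 and 0.22), where the first value is without and the second with serum. In Mrpl40, whose protein is found only in mitochondria, TG arrays ran from 7.80 to 7.91 without serum against WT arrays at 7.63, 7.64, 7.81, 7.81 and 7.74, and from 8.73 to 8.97 with serum against 8.55 to 8.83. Without serum the genotypes of Mrpl40 touched at the edge of their ranges, and with serum 4 of the 7 TG cultures lay inside the WT range. Mrps35, a small subunit protein found only in mitochondria, ran from 7.20 to 7.53 in TG arrays without serum against WT arrays at 7.25, 7.15, 7.29, 7.32 and 6.93, and from 7.23 to 7.38 with serum against 6.90 to 7.39. With serum 6 of the 7 WT cultures of Mrps35 lay below every TG culture, and the other, culture 2, was the highest of all. Mrps21, a small subunit protein with a bacterial counterpart, ran from 9.37 to 9.61 against WT arrays at 9.32, 9.14, 9.47, 9.47 and 9.35, and from 10.42 to 10.56 against 10.29 to 10.52. Mrpl55, found only in mitochondria, ran from 7.64 to 7.90 against 7.67, 7.57, 7.64, 7.62 and 7.52, and from 7.46 to 7.77 against 7.36 to 7.52. Each of these genes thus had overlapping genotypes in both sets.

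**Figure D3:**
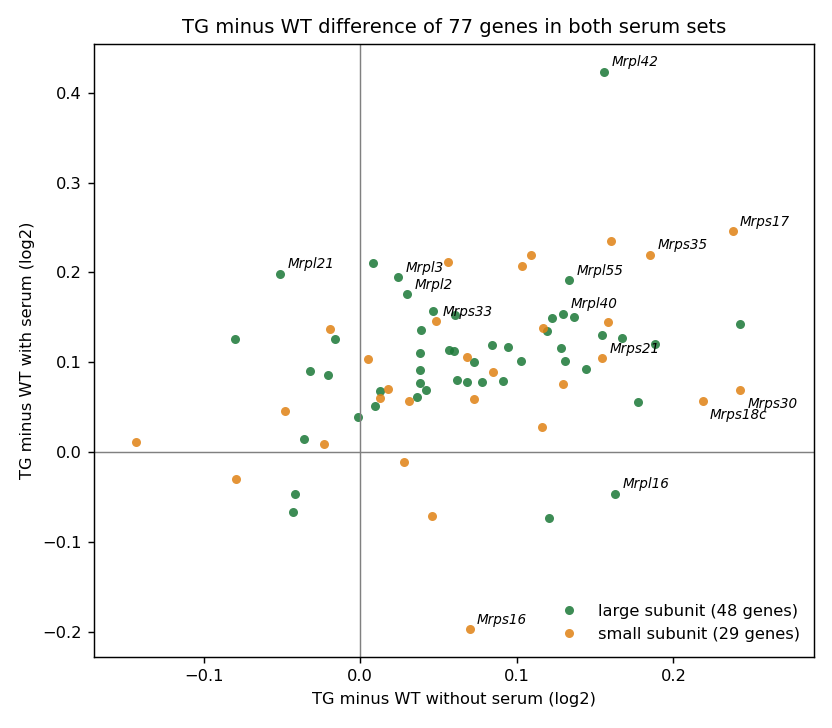
TG minus WT difference on the log2 scale without serum (horizontal axis) against the difference with serum (vertical axis), 1 point for each of the 77 genes, coloured by subunit. The upper right field, where TG is higher in both sets, holds 58 genes, and the lower left field holds 3.

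Whether the TG effect differed with serum was tested in 1 fit over the 25 arrays. The sets differ in spread as well as in level, with a median SD of the array values of 2.12 without and 2.57 with serum. How far that difference in spread enters the contrast was not tested. No member was called (0 of 77, against 0.00281% of all probe sets), and the median difference between the effects was 0.028. Before adjustment 3 members had p under 0.05 with a larger effect in serum, against 1.68% of all probe sets, and 3 with a smaller one, against 2.58%. Mrps16 had the smallest p, with an effect 0.27 lower in serum (difference -0.27, SE 0.0751, adjusted p = 0.84 by limma). The effect on Mrpl16, a large subunit protein with a bacterial counterpart, was 0.16 without and -0.046 with serum (difference -0.21, adjusted p = 1.00), and that on Mrpl21 was -0.051 and 0.20 (difference 0.25, adjusted p = 1.00).

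A list of 17 members with well described roles, in the stalk, the decoding site or human disease, held genes on both sides of 0. Of these 17 genes 13 lay above 0 without serum (median 0.046) and 13 with serum (median 0.071). Mrpl12 forms part of the stalk that binds translation factors and also binds the mitochondrial RNA polymerase. It had a difference of 0.15 with serum, with TG arrays at 8.82, 8.93 and 9.18 and WT arrays at 8.67, 8.71 and 9.02, and the groups overlapped. Mrpl44, a protein with a ribonuclease-like fold, had -0.016 without and 0.13 with serum, and Mrps22 had 0.017 and 0.071. Mrps12, at the decoding site, lay near 0 in both sets (-0.023 and 0.0093). Mrpl10, Mrpl11, Mrps2, Mrps7 and Mrps14 had differences between -0.032 and 0.090 over both sets.

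Most sarcomere genes also lay higher in TG, without passing the test. Of the 20 sarcomere genes 17 lay above 0 in TG without serum (median 0.13) and 19 with serum (median 0.35), with 0 called in either set, and the genotypes overlapped in both. The sarcomere score, the mean of these genes after centring each, ran from -0.80 to 0.52 over TG arrays and from -0.73 to 0.25 over WT arrays without serum, and from -0.52 to 0.42 and from -0.63 to 0.21 with serum. Endothelial genes lay lower in TG, with 10 of 12 below 0 without serum (median -0.045) and 12 of 12 with serum (median -0.27), and their mean ran from -0.53 to 0.49 in TG and from -0.25 to 0.55 in WT with serum. Epicardial genes were below 0 for 9 of 10 and 7 of 10 (medians -0.18 and -0.16), with means from -0.27 to 0.18 in TG and from -0.20 to 0.35 in WT without serum and from -0.30 to 0.13 and from -0.18 to 0.33 with serum. Of the fibroblast genes 13 of 15 and 8 of 15 were below 0, of the macrophage genes 9 of 11 and 4 of 11, and of the smooth muscle genes 4 of 8 in both sets. The part of the endothelial and epicardial transcripts in the differences of the ribosome genes was not tested.

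Dependence on myocyte content was tested as the slope of each gene on the sarcomere score, with genotype in the model. A slope of 1 means that a gene varies between cultures as much as the sarcomere genes do. Most mitochondrial ribosome genes had slopes near 0. Without serum 9 of 77 members (11.7%) had an adjusted p under 0.05, 7 positive and 2 negative, against 11.6% of all probe sets (5.35% positive and 6.27% negative) and 26.8% of genes in the members' range of values. With serum 8 of 77 (10.4%) were called, 7 positive and 1 negative, against 15% of all probe sets (6.86% positive and 8.18% negative) and 32.7% of genes in that range. The median slope was 0.057 without and 0.064 with serum, against -0.011 and 0.011 over all genes. The share of members called was thus near that of all probe sets without serum and below it with serum. In both sets it was well below the share of genes in the members' range of values.

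The members that did vary with the sarcomere score were few and belonged to both subunits. Mrps36, Mrps28 and Mrpl18 rose with the score in both sets (slopes 0.31 and 0.30, 0.25 and 0.37, 0.22 and 0.21), where 9.69% of all genes were called in the same direction in both. A second, dimmer probe set of Mrps36 had slopes of 0.29 and 0.23. It was called in neither set (adjusted p = 0.0754 and 0.254 by limma). Mrpl18 encodes a large subunit protein related to bacterial proteins that bind ribosomal RNA, and Mrps28 a small subunit protein. Without serum Mrpl42 had the steepest slope (0.61, SE 0.106, adjusted p = 0.00385), followed by Mrps27, a protein with repeats of the kind that bind RNA (0.51), and Mrpl23, at the exit tunnel (0.39), and Mrpl3 rose as well (0.21). Mrps18b fell with the score (-0.36, SE 0.0505, adjusted p = 0.00103), as did Mrps30 (-0.27). The TG culture with the lowest sarcomere score, culture 5 at -0.80, had the highest Mrps18b value of its group, 9.42 in a range from 8.89, and the lowest Mrpl42 value, 6.37. With serum the genes that rose were also Mrps23 (0.35), Mrpl34 (0.34), Mrpl48 (0.26) and Mrpl38 (0.25), and Mrpl17 fell (-0.30). Mrps23, a small subunit protein, was lowest with serum in WT cultures 3 and 4 at 9.41 and 9.43, the WT cultures with the lowest sarcomere scores (-0.63 and -0.62), and ran from 9.61 to 9.89 in the other WT cultures and from 9.73 to 9.99 in TG cultures. Mrps28 was likewise lowest there, at 7.42 and 7.44. Single cultures moved these counts. The 9 calls without serum became 2 without TG culture 5, namely Mrps18b and Mrps27, 4 without WT culture 2, and 5 without TG culture 2 or WT culture 3. The 8 calls with serum became 4 without TG culture 3, 4 or 6 or WT culture 4, and 5 without TG culture 7 or WT culture 5.

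Other gene groups of the same arrays gave steeper slopes. Of 47 nuclear genes for respiratory chain subunits, 36 were called without and 39 with serum, all positive, with median slopes of 0.36 and 0.42. Of 60 genes for proteins of the cytosolic ribosome 26 and 23 were called, all negative, with medians of -0.21 and -0.20. The quartiles of the slopes were -0.063 and 0.13 for the members without serum, 0.25 and 0.45 for the respiratory chain and -0.28 and -0.13 for the cytosolic ribosome, and those with serum were similarly apart. No test was made between these groups.

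**Figure D4:**
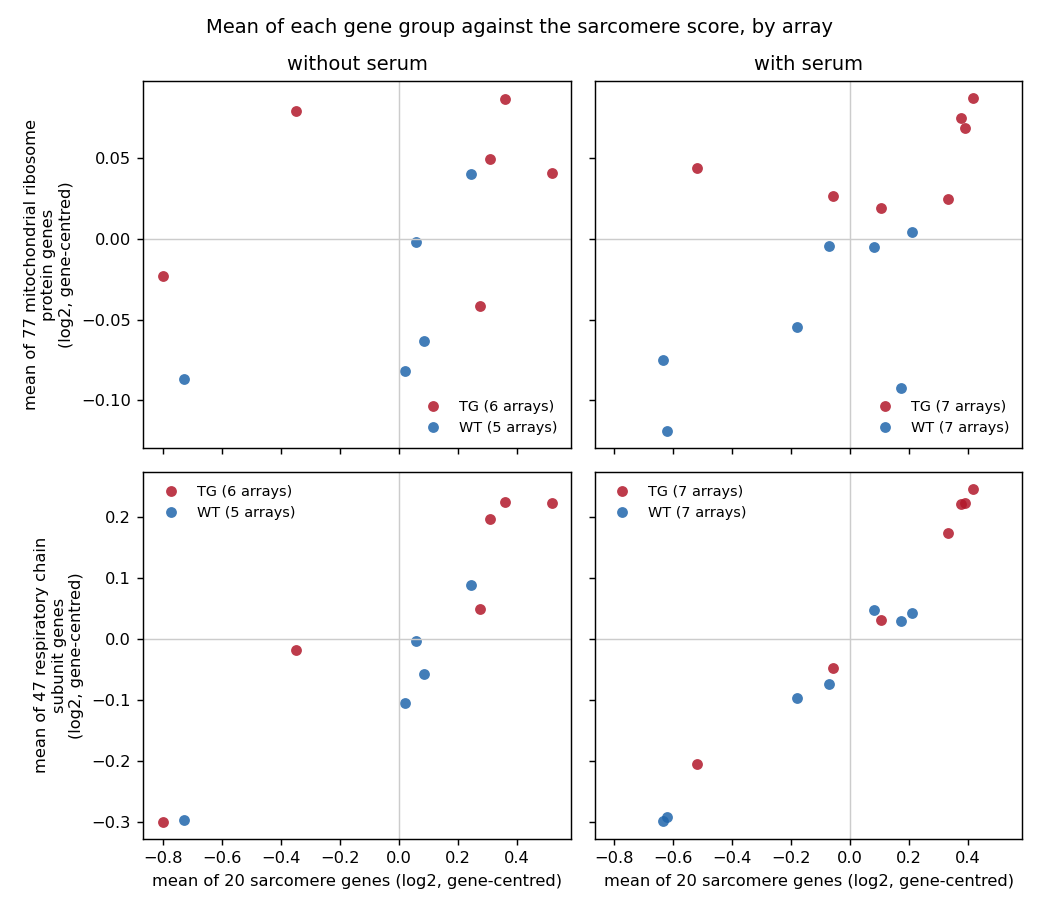
Mean of the 77 mitochondrial ribosome protein genes (upper row) and of 47 respiratory chain subunit genes (lower row) against the sarcomere score on each array, all in log2 units after centring each gene within its set. With serum the 7 TG arrays lie between 0.019 and 0.088 in the upper row, above the 7 WT arrays. Among these TG arrays culture 6 had the lowest sarcomere score (-0.52), and the next lowest was culture 5 (-0.057). In the lower row the means of both genotypes rise with the score.

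**Figure D5:**
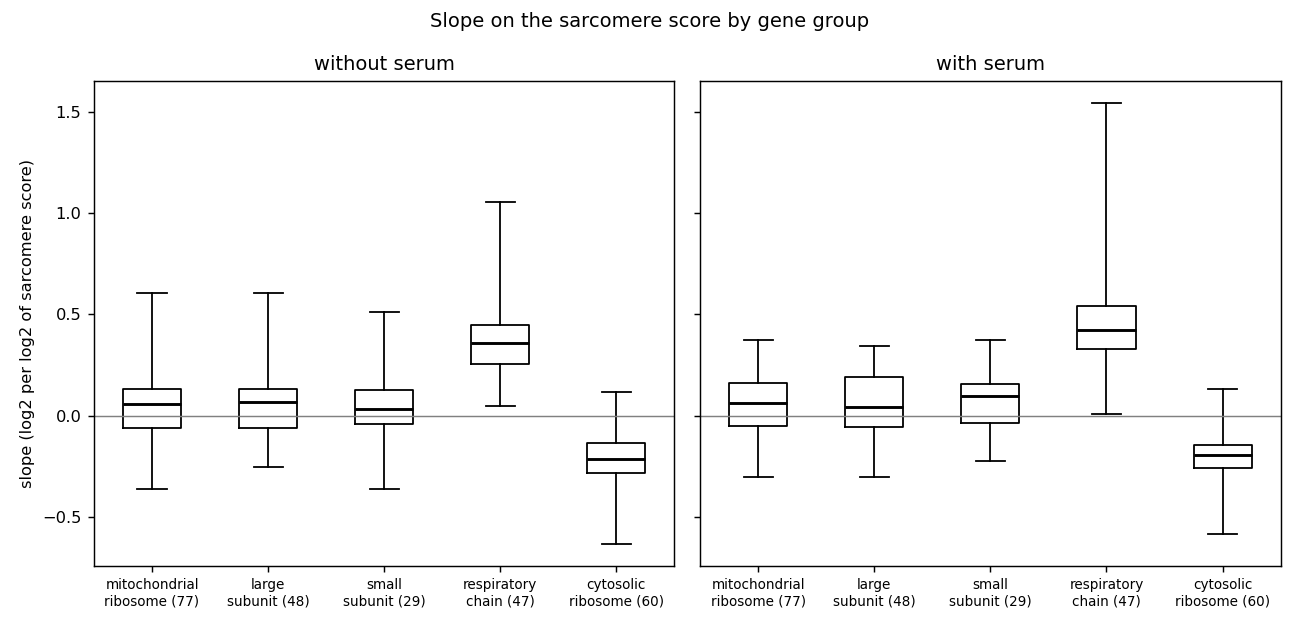
Slopes on the sarcomere score, in log2 per log2 of the score, for gene groups without serum (left) and with serum (right). Boxes span the quartiles, the thick line is the median and whiskers reach the lowest and highest gene. The medians are 0.057 and 0.064 for the mitochondrial ribosome, 0.36 and 0.42 for the respiratory chain, and -0.21 and -0.20 for the cytosolic ribosome.

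With the sarcomere score in the model the median TG minus WT difference of the mitochondrial ribosome genes stayed above 0 in both sets. Without serum 61 of 77 lay above 0 with a median of 0.058 in place of 0.068, and 12 had p under 0.05 before adjustment and were higher in TG (3.55% of all probe sets did), with 0 lower (3.67%). These 61 stood against 46.5% of all genes and 57.9% of genes in the members' range. With serum 67 of 77 lay above 0 with a median of 0.083 in place of 0.10, and 20 had p under 0.05 and were higher (4.5% of all probe sets) with 1 lower (7.68%). These 67 stood against 48.2% of all genes and 63.4% of genes in the range. By limma 0 members were called in either set after adjustment (0% and 0.0928% of all probe sets were). Mrpl42 kept a difference of 0.36 (adjusted p = 0.144) and Mrps33 one of 0.17 (adjusted p = 0.138) with serum, and Mrps30 one of 0.27 (adjusted p = 0.607) without. Other members lost more: with serum the difference went from 0.24 to 0.15 for Mrps36, from 0.21 to 0.11 for Mrps23, from 0.15 to 0.048 for Mrpl34 and from 0.14 to 0.033 for Mrps28, and without serum from 0.16 to 0.085 for Mrpl42. For the respiratory chain genes the median went from 0.12 to 0.096 without serum and from 0.17 to 0.038 with serum. For the sarcomere genes it went from 0.13 to 0.0079 and from 0.35 to -0.023. The score is the mean of these same sarcomere genes, so their fall is built into the model and is not a result. Without the 3 arrays with the lowest sarcomere scores of each set, a choice made after seeing the data, 59 and 68 of 77 members lay above 0, with medians of 0.063 and 0.083, 8 and 12 members with p under 0.05 before adjustment that were higher in TG, and 1 and 3 that were lower.

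Other genes of mitochondrial translation were taken from lists of their own, and none of their genes was called in either set. The 4 further proteins of the mitochondrial ribosome with other symbols (Dap3, Ptcd3, Chchd1 and Gadd45gip1) were all above 0 in both sets, with medians of 0.082 and 0.14. Dap3, a GTP-binding protein of the small subunit, had a difference of 0.21 with serum (SE 0.0514, adjusted p = 0.29). It is a gene that the study named from these same samples. Of 14 translation factors 10 and 12 lay above 0 (medians 0.061 and 0.095), with 0.19 for Gfm2, a factor that recycles ribosomes, and 0.18 for Guf1 with serum. Of 19 aminoacyl-tRNA synthetases and related enzymes 11 and 17 lay above 0 (medians 0.016 and 0.11), and 7 had p under 0.05 before adjustment with serum, among them Qrsl1 (0.24) and Rars2 (0.15).

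The factors that build the ribosome were a list of their own. Of 25 assembly factors 14 lay above 0 without serum (median 0.0096) and 19 with serum (median 0.056). Without serum Fastkd2, a protein of mitochondrial RNA granules, had 0.12 and Mrm2, a methyltransferase of the ribosomal RNA, had 0.16. With serum Tfb1m, which methylates the RNA of the small subunit, had 0.25 (SE 0.0609, adjusted p = 0.29) and Mterf3 0.21. Of the 4 genes of mitochondrial transcription 2 and 3 lay above 0, with 0.23 for the elongation factor Tefm with serum (adjusted p = 0.311). The respiratory chain genes lay above 0 in 47 of 47 cases in both sets (medians 0.12 and 0.17, with 2 and 15 at p under 0.05 before adjustment). The cytosolic ribosome genes did so in 37 of 60 without serum and 16 of 60 with serum (medians 0.011 and -0.025).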

How the data were processed

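Total RNA of each culture was hybridised to a mouse gene expression array that covers whole transcripts. The deposited log2 values had been made by the authors with RMA in Affymetrix Expression Console 1.1, and whether both sets were normalized together is not given in the sources used here. Of 35557 probe sets, 21789 named 1 gene, 1621 several and 12147 none in the platform annotation, and 1 member probe set shared with another gene was left out. Each set was fitted on its own in limma 3.58.1 (R 4.3.3), with Benjamini-Hochberg adjustment over all probe sets and an adjusted p under 0.05 as a call. The labels number the cultures but no source says from which animals they came, so p-values measure the spread between these samples, and the number of arrays limits the precision. No pair of arrays was identical (highest correlation 0.996). Slopes used the mean of 20 sarcomere genes, each centred within its set, with genotype in the model. Since that score comes from the same arrays, array quality can move both sides of a slope. Named were the 10 members with the smallest p or up to 10 called in each TG against WT comparison and slope, those whose groups did not overlap, the 3 with the highest and the 3 with the lowest mean, a list of known roles and, of other lists, the 2 genes with the smallest p. Members and lists were chosen with earlier results of these data known. Promoter windows were matched by Entrez gene identifier to RefSeq for 68 of 77 members. The script was tested on simulated data. Alternatives were array weights, a variance trend, renormalization, centring, filters on probe sets, covariates, a replicate block and leaving out single arrays.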

Additional observations from a re-analysis of the deposited data

Results flagged for a closer look

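In 15 of 192 groups of values examined (7.81%), 1 culture stood far from the others of its group by Dixon's test. Chance gives about 1 in 20, or 9.6 groups here. For the myocyte score, the mean of the sarcomere genes was -0.73 in WT culture 2 without serum, against 0.023 to 0.25 in the other WT cultures.

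Among cultures without serum, Mrpl35 was 8.41 in WT culture 4 (others 8.26 to 8.29), Mrpl3 was 7.99 in WT culture 2 (8.10 to 8.11) and Mrps22 was 7.48 in WT culture 3 (7.31 to 7.35). In the TG cultures, Mrpl54 was 7.61 in culture 5 (7.84 to 7.98) and Mrpl17 was 7.37 in culture 5 (7.23 to 7.24), the TG culture with the lowest sarcomere score. Mrps16 was 8.57 in TG culture 4 (8.33 to 8.41) and Mrps12 was 6.17 in the same culture (5.72 to 5.79). Mrps5 was 6.85 in TG culture 1 (6.68 to 6.70) and Mrps2 was 8.22 in TG culture 6 (8.05 to 8.09).

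With serum, Mrps16 was 8.86 in WT culture 4 (9.01 to 9.10), the culture that overlapped the TG range. Mrps33 was 8.82 in TG culture 4 (8.90 to 8.95), Mrps18c was 10.2 in TG culture 6 (9.89 to 9.97), Mrps5 was 7.57 in TG culture 1 (7.72 to 7.79) and Mrpl12 was 9.18 in TG culture 2 (8.82 to 8.96).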

How the results depend on the processing

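The TG against WT comparisons had 0 members called under each of 24 alternatives without serum and 27 with serum, and the number of members above 0 stayed between 59 and 68 and between 66 and 73. Leaving out single cultures gave medians of 0.053 to 0.087 without and 0.092 to 0.115 with serum. With each array centred on its median the median with serum was 0.15, with 73 of 77 above 0 and 43 higher at unadjusted p under 0.05 (24 as deposited). Quantile normalization of each set again went the other way, with medians of 0.048 without and 0.085 with serum. It left 9 members higher at unadjusted p under 0.05 without serum (14 as deposited) and 18 with serum. The difference between the sets had 0 calls throughout, with medians of 0.014 to 0.046 when single cultures were left out.

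The slopes depended more on the setting. Without serum the 9 calls became 14 when probe sets naming 1 gene alone were tested, 14 when probe sets of 1 gene were averaged, 1 in TG arrays alone and 0 in WT arrays alone, and the median slope became 0.028 with the other myocyte score and 0.035 in TG arrays alone. With serum the 8 calls became 13 without dim probe sets, 3 with arrays centred, and 0 in TG or WT arrays alone, and the median became 0.051 with array weights, 0.023 with arrays centred, 0.020 in TG arrays and 0.097 in WT arrays. Leaving out single cultures gave 2 to 9 calls and medians of 0.0046 to 0.070 without serum, and 4 to 9 calls and 0.048 to 0.099 with serum. Apart from the smaller number of arrays or probe sets, the cause was not tested.

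A fibroblast score in place of the sarcomere score gave 0 and 2 calls and medians of -0.13 and -0.015. The median slope of the fibroblast genes themselves on the sarcomere score was -0.19 without and -0.68 with serum. Slopes on it turned sign without serum for Mrps18b (0.24), Mrpl42 (-0.47), Mrps27 (-0.063), Mrpl23 (-0.20), Mrpl3 (-0.021), Mrpl18 (-0.18), Mrps36 (-0.30), Mrps28 (-0.30) and Mrpl54 (-0.16). With serum it turned for Mrps23 (-0.30), Mrpl34 (-0.30), Mrps28 (-0.13), Mrps36 (-0.17), Mrpl48 (-0.16), Mrpl18 (-0.085), Mrpl17 (0.16), Mrpl38 (-0.29), Mrpl35 (-0.13) and Mrpl15 (-0.14).

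Same-numbered TG and WT arrays had correlations of -0.63 to 0.27 without and -0.58 to 0.24 with serum. The numbers in the labels run without gaps, whereas a figure caption of the study numbers its serum-free cultures with gaps. Same-numbered arrays may thus be unrelated cultures, so neither these correlations nor the replicate block can decide whether samples were paired. With the replicate block 0 members were called for TG against WT, the 24 members with unadjusted p under 0.05 and higher in TG with serum became 13, slope calls became 6 without and 1 with serum, and median slopes 0.027 and 0.047.

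Several probe sets of 1 gene differed in sign for Mrpl47, Mrps5 and Mrpl51. The differences of single genes are near the spread between cultures. Members share the same arrays, so a count of genes on either side of 0 is not a count of independent values.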
